A study of Mus musculus with 9 samples.

Results

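The genes described here are 9 genes of blood clotting and plasminogen activation in mouse macrophages: F3, F5, F7, F10, F13a1, Plau, Plaur, Serpinb2 and Thbs1. All 9 were on the array, with 14 probes of 55681, and 8 of them passed the filter on dim probes that 16462 genes passed. The members were chosen by name from levels and fold changes of these same 9 arrays, so their values describe these arrays and are not independent evidence for them. RNA was measured in F4/80high tumour-associated macrophages (TAMs) and F4/80low TAMs of a fibrosarcoma, and in peritoneal exudate cells (PECs), the control macrophages. Each group had 3 samples, all from C57BL/6J mice, each hybridised in a single colour (Cy3) to its own Agilent array. F4/80 is the only sorting marker that the labels name. The samples are called biological replicates without mention of separate animals, so the p-values measure the spread between these samples, which may be technical. TAMs and PECs differ in tumour and in tissue of origin at once, and these cannot be told apart.

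Levels are log2 intensities relative to the 75th percentile of each array, so 0 is that percentile and 1 unit is a factor of 2. A gene was called where the limma p, adjusted over all 16462 genes, was under 0.05. PEC replicate 1 lies on slide 1 with the 6 TAM arrays, and PEC replicates 2 and 3 lie on slide 2. Each difference from PECs is therefore given a second time with slide as a block, which leaves PEC replicate 1 as the only PEC array set against the TAMs. Of 7 macrophage markers, all 7 were above background on every F4/80high TAM and PEC array, and 6 on every F4/80low TAM array. Mertk was above background on no F4/80low TAM array. In bulk RNA, fewer cells that express a gene and less RNA per cell cannot be told apart.

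Tissue factor (F3) starts clotting by binding factor VII (F7), and the complex activates factor X (F10), which with factor V (F5) turns prothrombin into thrombin. The A subunit of factor XIII (F13a1) then cross-links fibrin. Urokinase (Plau), held at the cell surface by its receptor (Plaur), turns plasminogen into plasmin, which dissolves fibrin and matrix, and Serpinb2 is an inhibitor of urokinase. Thbs1, or thrombospondin 1, is an adhesive matrix protein of platelets and macrophages. Macrophages outside the liver are a known source of several of these factors.

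The probes of F10 and F7 are shown because the reading of both genes turns on them. Capitals in the F10 probes mark bases lying in 16-base stretches that also occur in RefSeq promoter windows of at least 10 other genes. Capitals in the F7 probes mark the 30 bases that both share.
F10, A_51_P174961: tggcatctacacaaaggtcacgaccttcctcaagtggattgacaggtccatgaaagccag
F10, A_55_P2106078: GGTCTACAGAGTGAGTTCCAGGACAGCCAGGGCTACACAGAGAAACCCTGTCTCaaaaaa
F7, A_51_P484054: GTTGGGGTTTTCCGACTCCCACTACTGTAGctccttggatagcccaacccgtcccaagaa
F7, A_55_P2045040: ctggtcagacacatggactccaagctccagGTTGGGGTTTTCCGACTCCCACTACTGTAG
By the file annotation (mouse build mm9, plus strand) the F10 probes lie at chr8:13055774-13055833 and chr8:13056119-13056178, and the F7 probes at chr8:13035287-13035346 and chr8:13035257-13035316. Whether these positions are exonic was not determined here. The first F10 probe lists accessions of F10 alone and has no capital. The second also lists Glrx2, 54 of its 60 bases are in capitals, and it shares 16 bases with 112 of 32851 promoter windows (0.341%) and with 20 probes of other genes. It is the brighter of the pair, and the rule that the brightest probe stands for a gene would have taken it. Its level was 11.11, 11.18 and 11.20 in the F4/80high TAMs, 11.17, 11.17 and 11.34 in the F4/80low TAMs, and 10.80, 11.06 and 10.67 in PECs, a difference of 0.32 between F4/80high TAMs and PECs (SE 0.16, adjusted p 0.118). F10 is therefore described by its own probe, a choice made after the values were seen.

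With F10 by its own probe, 4 of the 8 tested members were called in F4/80high TAMs against PECs. Plaur was higher, and F7, F10 and Plau were lower. Over all genes 53.1% were called in this comparison, 24.9% higher and 28.2% lower. In F4/80low TAMs against PECs 4 members were called, with Thbs1 higher and F3, F7 and Plau lower, where 52.0% of all genes were called, 22.5% higher and 29.4% lower. In F4/80high against F4/80low TAMs 3 members were called, with Plau and Plaur higher and F10 lower, where 32.7% of all genes were called, 18.7% higher and 14.0% lower. With F10 by its brightest probe the counts were 3, 4 and 2. The arrays of the compared groups did not overlap for 4, 3 and 4 members in the same order of comparisons, against 65.4%, 59.3% and 46.9% of all genes. Since these contrasts were known when the members were chosen, nothing is read from these shares. Both TAM groups are set against the same PECs, so their fold changes share those 3 arrays.

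**Figure D1:**
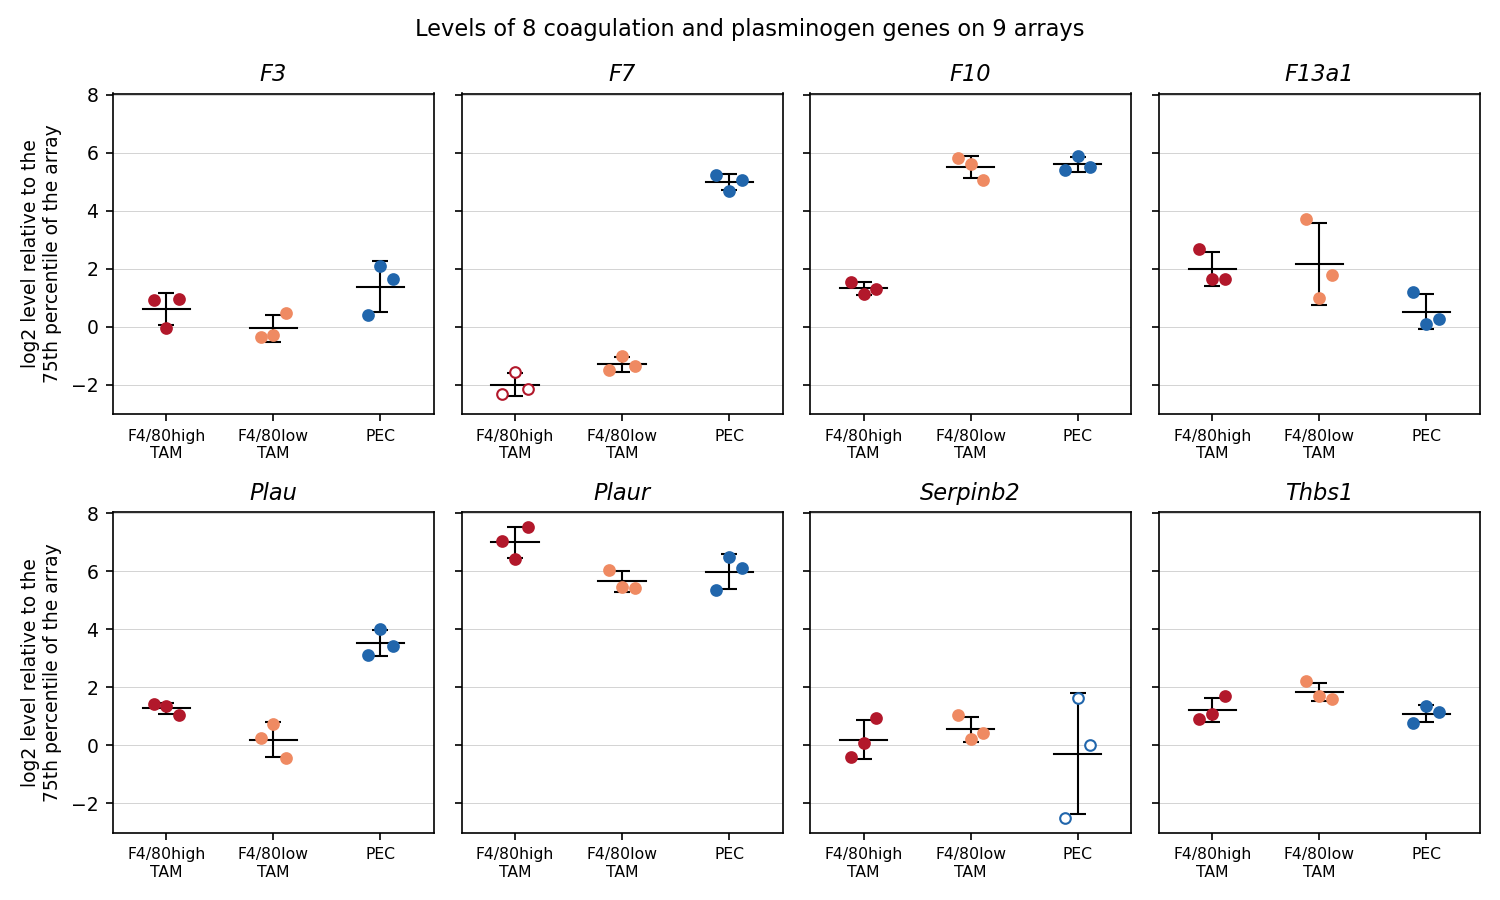
Log2 level relative to the 75th percentile of the array (vertical axis) for the 8 tested members on the 3 arrays of F4/80high TAMs, F4/80low TAMs and PECs. Points are arrays, bars are the mean and SD (n = 3), and hollow points belong to a group in which not every array was above background. F7 stands near 5 in PECs alone, while F10 is near 5.5 in F4/80low TAMs and PECs and 1.32 in F4/80high TAMs.

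F10 encodes factor X, the protease that makes thrombin. Its own probe read 1.56, 1.12 and 1.28 in the F4/80high TAMs, 5.83, 5.63 and 5.08 in the F4/80low TAMs, and 5.40, 5.90 and 5.53 in PECs. All 3 F4/80high arrays lay below every other array, and the F4/80low and PEC arrays overlapped. F4/80high TAMs lay 18.3-fold under F4/80low TAMs (-4.20 on the log2 scale, SE 0.24, adjusted p 1.00e-05). They lay 19.6-fold under PECs (-4.29, SE 0.24, adjusted p 1.69e-06, or -4.08 and 0.000129 with slide as a block). F4/80low TAMs did not pass against PECs (-0.10, SE 0.24, adjusted p 0.755, or 0.11 and 0.829 with slide as a block). The smaller table of values that the authors deposited holds this probe and not the brighter one, and gave -4.02, -0.020 and -4.00 in the F4/80high TAMs against PECs, F4/80low TAMs against PECs and F4/80high against F4/80low TAMs. The summed level of 9 neutrophil markers was 222 to 330 in F4/80high TAMs, 1883 to 7725 in F4/80low TAMs and 120 to 156 in PECs. Most of the F4/80high and PEC sums was Csf3r, at 7.84, 7.74 and 7.81 in the F4/80high TAMs and 7.18, 7.12 and 6.67 in PECs. The part of neutrophils in the F10 level was not tested.

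F7 encodes factor VII, the partner of tissue factor. Its probe read -2.32, -1.57 and -2.14 in the F4/80high TAMs, -1.51, -1.02 and -1.37 in the F4/80low TAMs, and 5.24, 4.69 and 5.07 in PECs. Every PEC array stood above every TAM array. The log2 fold change was -7.01 in F4/80high TAMs (SE 0.25, adjusted p 1.67e-07) and -6.30 in F4/80low TAMs (SE 0.25, adjusted p 3.64e-07). With slide as a block these were -7.25 (adjusted p 1.24e-05) and -6.54 (adjusted p 2.75e-05). The F7 spot was well above background on 1 of 3 F4/80high arrays and on all F4/80low arrays.

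The overlapping F7 probe separated the TAM groups further. It read -3.96, -3.38 and -3.26 in the F4/80high TAMs, where it was not well above background, -1.73, -1.34 and -1.47 in the F4/80low TAMs, and 5.43, 4.74 and 5.25 in PECs. By this probe F7 was at least 173-fold lower in F4/80high TAMs than in PECs (adjusted p 5.24e-08 with every probe fitted as its own row), and at least 1.72-fold lower than in F4/80low TAMs (adjusted p 0.000442). Each bound sets the dim group at the faintest spot called above background on its arrays, which is not specific to the probe. The bounds themselves were not tested. Here and below, an adjusted p printed beside a bound is that of the measured difference, which includes values at background. For this probe the measured log2 differences were -8.67 and -2.02. By the first probe the difference between TAM groups was -0.71 (SE 0.25, adjusted p 0.0531) and the arrays did not overlap. With replicate number as a block in the 6 TAM arrays alone its adjusted p was 0.0322.

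**Figure D2:**
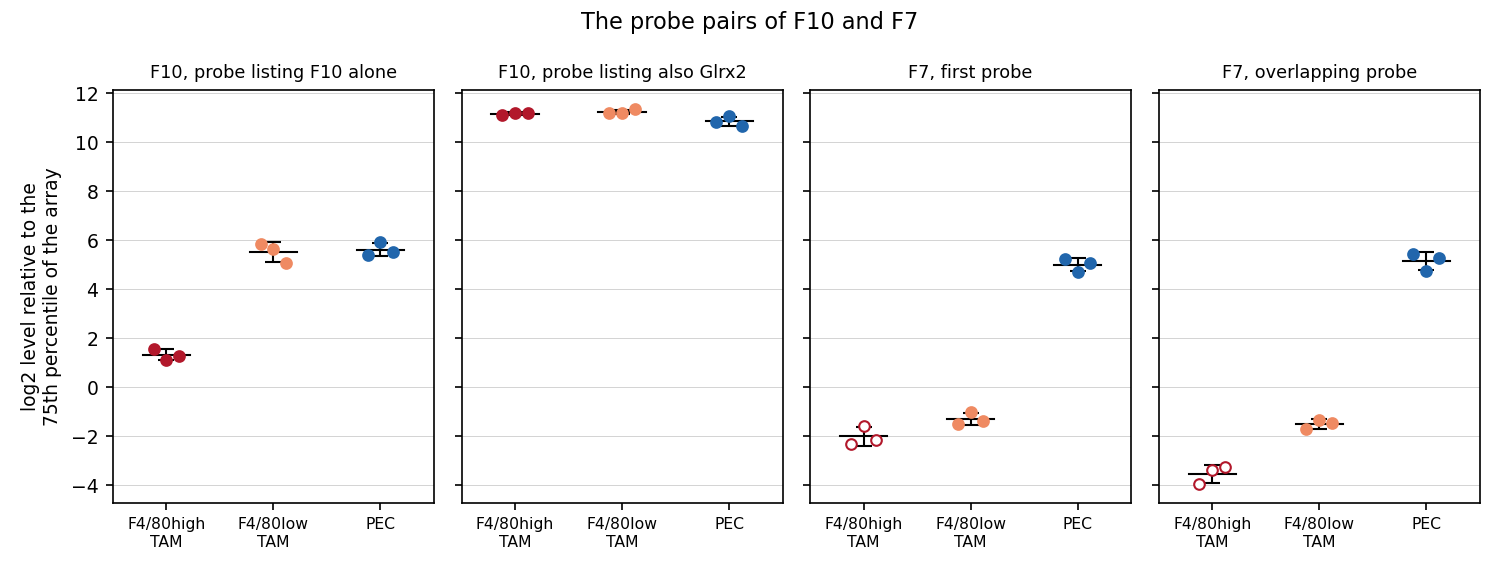
Log2 level relative to the 75th percentile of the array for both probes of F10 and both probes of F7, by group, with points for arrays and bars for the mean and SD (n = 3). Hollow points belong to groups not wholly above background. The F10 probe that lists F10 alone is low in F4/80high TAMs, and the probe that also lists Glrx2 differs by under 0.7 log2 units among all 9 arrays.

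F7 and F10 are neighbouring genes, with no protein-coding gene between them in RefSeq, Mcf2l before them and Proz and Pcid2 after them. Proz encodes protein Z, a cofactor in the inhibition of factor X. It was above background in F4/80low TAMs alone, at least 4.24-fold lower in F4/80high than in F4/80low TAMs (adjusted p 0.000341) and at least 4.88-fold higher in F4/80low TAMs than in PECs (adjusted p 0.00108, or 0.0316 with slide as a block). Mcf2l, above background on 2 of 3 F4/80high arrays, was lower than in PECs, with a log2 fold change of -2.76 in F4/80high TAMs (adjusted p 0.000771, or -2.88 and 0.0126 with slide as a block) and -1.95 in F4/80low TAMs (adjusted p 0.00596). With slide as a block the F4/80low difference did not pass (-2.06, adjusted p 0.0507). Farther along, Cul4a was higher in F4/80high than in F4/80low TAMs by 0.59 (adjusted p 0.0178) and Lamp1 by 1.63 (adjusted p 8.45e-05). The Cul4a call was lost without F4/80high replicate 2 (adjusted p 0.0712) or 3 (adjusted p 0.0640) and without F4/80low replicate 1 (adjusted p 0.0514). Against PECs both were lower in both TAM groups. Lamp1 changed by -0.94 in F4/80high TAMs (adjusted p 0.000608) and -2.58 in F4/80low TAMs (adjusted p 2.77e-06). Cul4a changed by -0.48 (adjusted p 0.0279) and -1.07 (adjusted p 0.000531). With slide as a block these were -1.02 and -2.66 for Lamp1, and -0.45 (not called) and -1.05 for Cul4a. The F4/80high Cul4a call was lost without F4/80high replicate 1 or PEC replicate 2 or 3 (adjusted p 0.0727 to 0.0924). Pcid2 read -1.01, -0.83 and -0.98 in the F4/80high TAMs and -3.29, -1.73 and -1.50 in the F4/80low TAMs, above background on 2 of those 3. Its difference of 1.23 (adjusted p 0.0415) was 0.67 without F4/80low replicate 1 (adjusted p 0.0220), and the call was lost with slide as a block (adjusted p 0.0568) and without any 1 of the F4/80high or PEC arrays (adjusted p 0.0568 to 0.112).

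The promoter windows of these neighbours are shown for reference (RefSeq, GRCm38.p6, plus strand, 250 bases before to 50 after the start). The F7 window lies at chr8:13025784-13026083 and the F10 window at chr8:13037058-13037357. Capitals mark GAGGAA (PU.1, a macrophage factor) in F7 and the NF-kappaB motif (GGGA and CC with any 4 bases between them) in F10, each on either strand.
F7 promoter: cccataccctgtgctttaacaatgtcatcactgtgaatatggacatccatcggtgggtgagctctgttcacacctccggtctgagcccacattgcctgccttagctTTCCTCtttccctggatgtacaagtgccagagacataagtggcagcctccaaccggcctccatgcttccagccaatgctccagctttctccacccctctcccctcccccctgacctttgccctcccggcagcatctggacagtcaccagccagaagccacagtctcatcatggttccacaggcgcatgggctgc
F10 promoter: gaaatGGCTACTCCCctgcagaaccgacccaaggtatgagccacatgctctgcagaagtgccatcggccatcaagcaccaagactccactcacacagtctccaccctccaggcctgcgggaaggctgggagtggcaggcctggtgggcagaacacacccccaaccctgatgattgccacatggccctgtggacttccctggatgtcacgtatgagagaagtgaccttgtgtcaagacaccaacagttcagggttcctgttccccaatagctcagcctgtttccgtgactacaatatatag
The first motif is in 28.3% of the 32851 mouse promoter windows and the second in 20.7%, so a match is common. Neither window holds the AP-1 motif TGANTCA.

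Plau, urokinase, was lower in both TAM groups than in PECs, and F4/80low TAMs had the lowest level. It read 1.41, 1.35 and 1.06 in the F4/80high TAMs, 0.26, 0.74 and -0.45 in the F4/80low TAMs, and 3.12, 4.02 and 3.42 in PECs. No array of a group overlapped with another group. F4/80high TAMs lay 4.76-fold under PECs (-2.25 on the log2 scale, SE 0.32, adjusted p 0.000391, or -1.85 and 0.0139 with slide as a block). F4/80low TAMs were 10.1-fold below PECs (-3.33, SE 0.32, adjusted p 5.11e-05, or -2.93 and 0.00236 with slide as a block). F4/80high TAMs were 2.12-fold above F4/80low TAMs (1.08, SE 0.32, adjusted p 0.0299). Leaving out F4/80high replicate 1 (1.02, adjusted p 0.0869), F4/80high replicate 2 (1.05, adjusted p 0.0863), F4/80low replicate 1 (1.12, adjusted p 0.0537) or F4/80low replicate 3 (0.77, adjusted p 0.0811) ended that last call, as did normexp background correction (0.66, adjusted p 0.0523) and no filter on dim probes (adjusted p 0.0758).

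Plaur, the urokinase receptor, stood high above the 75th percentile in every group, and was highest in F4/80high TAMs. It read 7.05, 6.44 and 7.52 in the F4/80high TAMs, 6.06, 5.47 and 5.43 in the F4/80low TAMs, and 5.35, 6.51 and 6.12 in PECs. The F4/80high arrays lay above all F4/80low arrays and overlapped with PEC replicate 2. F4/80high TAMs lay 2.55-fold over F4/80low TAMs (1.35 on the log2 scale, SE 0.36, adjusted p 0.0182). They lay 2.01-fold over PECs (1.01, SE 0.36, adjusted p 0.0396, or 1.65 and 0.0203 with slide as a block). F4/80low TAMs did not pass against PECs (-0.34, adjusted p 0.449), and with slide as a block that difference had the other sign (0.30, adjusted p 0.630).

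Both Plaur calls lie close to the threshold. The call between TAM groups was lost without F4/80high replicate 1 (1.33, adjusted p 0.0527) or 3 (1.09, adjusted p 0.0635), without F4/80low replicate 2 (1.26, adjusted p 0.0562) or 3 (1.24, adjusted p 0.0549), with quantile normalization (1.05, adjusted p 0.0554) and with no filter (adjusted p 0.0501). The call against PECs was lost without PEC replicate 1 (0.69, adjusted p 0.124) or 3 (1.07, adjusted p 0.0737), without F4/80high replicate 1 (0.99, adjusted p 0.0922) or 3 (0.75, adjusted p 0.132) and without F4/80low replicate 2 (adjusted p 0.0511). It was also lost with normexp correction (0.60, adjusted p 0.115), quantile normalization (0.82, adjusted p 0.0884), no filter (adjusted p 0.0844), the deposited table (0.58, adjusted p 0.0600) and the groups fitted alone (adjusted p 0.0508). Against PECs, Plau was thus called lower and Plaur higher in F4/80high TAMs.

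Serpinb2, the urokinase inhibitor also called PAI-2, varied most within the PECs. It read -0.42, 0.06 and 0.92 in the F4/80high TAMs, 1.03, 0.20 and 0.42 in the F4/80low TAMs, and -2.52, 1.62 and 0.01 in PECs, where replicate 1 was not well above background. The PEC arrays spanned all TAM arrays. Neither TAM group passed against PECs (0.48, SE 0.86, adjusted p 0.660 for F4/80high TAMs and 0.84, SE 0.86, adjusted p 0.436 for F4/80low TAMs). With slide as a block, where PEC replicate 1 is the only PEC array compared, both were called higher (2.71, adjusted p 0.0175, and 3.07, adjusted p 0.0124), and without that array the signs turned (-0.63 and -0.27, neither past the threshold). The TAM groups did not pass against each other (-0.36, adjusted p 0.786).

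F3, tissue factor, was low to moderate in every group, and the call by its brightest probe rests on the PEC arrays of slide 2. It read 0.91, -0.04 and 0.96 in the F4/80high TAMs, -0.37, -0.29 and 0.48 in the F4/80low TAMs, and 0.39, 2.10 and 1.64 in PECs. All groups overlapped. F4/80low TAMs lay 2.71-fold under PECs (-1.44 on the log2 scale, SE 0.46, adjusted p 0.0262), and the call was lost with slide as a block (-0.46, adjusted p 0.509). It was also lost without PEC replicate 2 (-1.08, adjusted p 0.0929) or 3 (-1.31, adjusted p 0.0845) and without F4/80low replicate 1 (-1.28, adjusted p 0.0702) or 2 (-1.32, adjusted p 0.0747). F4/80high TAMs did not pass against PECs (-0.77, adjusted p 0.184, or 0.21 and 0.761 with slide as a block), except without PEC replicate 1 (-1.26, adjusted p 0.0248). A second F3 probe was above background on the PEC arrays alone, at -1.50, -1.56 and -1.70. By the second probe F3 was at least 1.79-fold lower in F4/80low TAMs than in PECs (adjusted p 0.0261 with every probe fitted as its own row). Those arrays did not overlap. The measured log2 difference was -1.58, or -1.67 and not called with slide as a block. In F4/80high TAMs the second probe gave -0.97 against PECs (adjusted p 0.129).

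F13a1, the A subunit of factor XIII, had higher means in both TAM groups than in PECs, and did not pass the test over all 9 arrays. It read 2.68, 1.66 and 1.64 in the F4/80high TAMs, 3.72, 0.98 and 1.78 in the F4/80low TAMs, and 1.21, 0.10 and 0.26 in PECs. The F4/80high arrays lay above the PEC arrays, and the F4/80low arrays overlapped with them. The log2 fold change was 1.47 in F4/80high TAMs (SE 0.64, adjusted p 0.0795) and 1.64 in F4/80low TAMs (SE 0.64, adjusted p 0.0563), or 0.79 (adjusted p 0.534) and 0.95 (adjusted p 0.458) with slide as a block. Some settings brought it past the threshold. In F4/80high TAMs these were the groups fitted alone (adjusted p 0.0146) and leaving out F4/80low replicate 1 (adjusted p 0.0129) or 2 (adjusted p 0.0488). In F4/80low TAMs these were leaving out F4/80low replicate 2 (2.23, adjusted p 0.0179) or PEC replicate 1 (1.98, adjusted p 0.0478), quantile normalization (1.76, adjusted p 0.0492) and median centring (1.81, adjusted p 0.0391). With the replicate number as a block both passed (adjusted p 0.00770 and 0.00536), although PEC numbers do not pair with those of the TAMs. F4/80low replicate 1 stood highest, at 3.72, and without it the F4/80low difference was 0.86 (adjusted p 0.138). Among monocyte markers, picked here after their values were seen, Chil3 read 9.95 on that array and 7.34 and 7.27 on the other F4/80low arrays, and Ccr2 read -0.90 there and -0.01 and -0.46 on the others. The part of monocytes in the F13a1 level was not tested. A second F13a1 probe was above background nowhere.

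F5, factor V, the cofactor of factor X, did not pass the filter and was not tested. By probe A_55_P2076545 it read -2.48, -2.41 and -3.79 in the F4/80high TAMs, 0.64, -1.84 and -2.23 in the F4/80low TAMs, and -2.70, -1.67 and -1.96 in PECs. The other probe, A_51_P407323, read -0.48 in F4/80low replicate 1 and -1.51 in PEC replicate 3, and -3.44 or less elsewhere. One or other probe was above background on 4 of 9 arrays, none of them F4/80high. F4/80low replicate 1, the highest for both probes, also had the highest sum of 9 neutrophil markers, at 7725, against 2285 and 1883 on the other F4/80low arrays. Their part in the F5 level was not tested.

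Thbs1 was a little higher in F4/80low TAMs than in PECs. It read 0.91, 1.07 and 1.69 in the F4/80high TAMs, 2.20, 1.70 and 1.60 in the F4/80low TAMs, and 0.76, 1.35 and 1.15 in PECs. The F4/80low arrays lay above the PEC arrays and overlapped with the F4/80high arrays. F4/80low TAMs were 1.68-fold above PECs (0.75 on the log2 scale, SE 0.27, adjusted p 0.0401), and the call was lost with slide as a block (1.07, adjusted p 0.0558). It was also lost without PEC replicate 1 (0.58, adjusted p 0.117) or 3 (0.78, adjusted p 0.0835), without F4/80high replicate 2 (adjusted p 0.0552) and without F4/80low replicate 1 (0.56, adjusted p 0.12) or 2 (0.81, adjusted p 0.0609). Normexp correction (0.45, adjusted p 0.0908), no filter (adjusted p 0.0575), slide 1 alone (adjusted p 0.0837) and the replicate number as a block (adjusted p 0.0644) ended it too. F4/80high TAMs did not pass against PECs (0.14, adjusted p 0.688, or 0.46 and 0.353 with slide as a block) or F4/80low TAMs (-0.61, adjusted p 0.111). Platelets carry thrombospondin 1. Of the platelet list, Itga2b, Gp1ba, Gp1bb and Gp5 were above background on no array. Ppbp was above background on 5 of 9 arrays, Gp6 on 2 and Gp9 on 1. The summed platelet list was 60.9 to 75.5 in F4/80high TAMs, 3.04 to 7.46 in F4/80low TAMs and 51.6 to 96.3 in PECs. Most of it was Pf4, which macrophages also express, at 6.22, 6.00 and 5.89 in the F4/80high TAMs, 1.02, 2.22 and 2.61 in the F4/80low TAMs, and 5.64, 6.40 and 6.56 in PECs. Treml1 was above background on 8 of 9 arrays, at 1.08 or less. The part of platelets in Thbs1 was not tested.

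**Figure D3:**
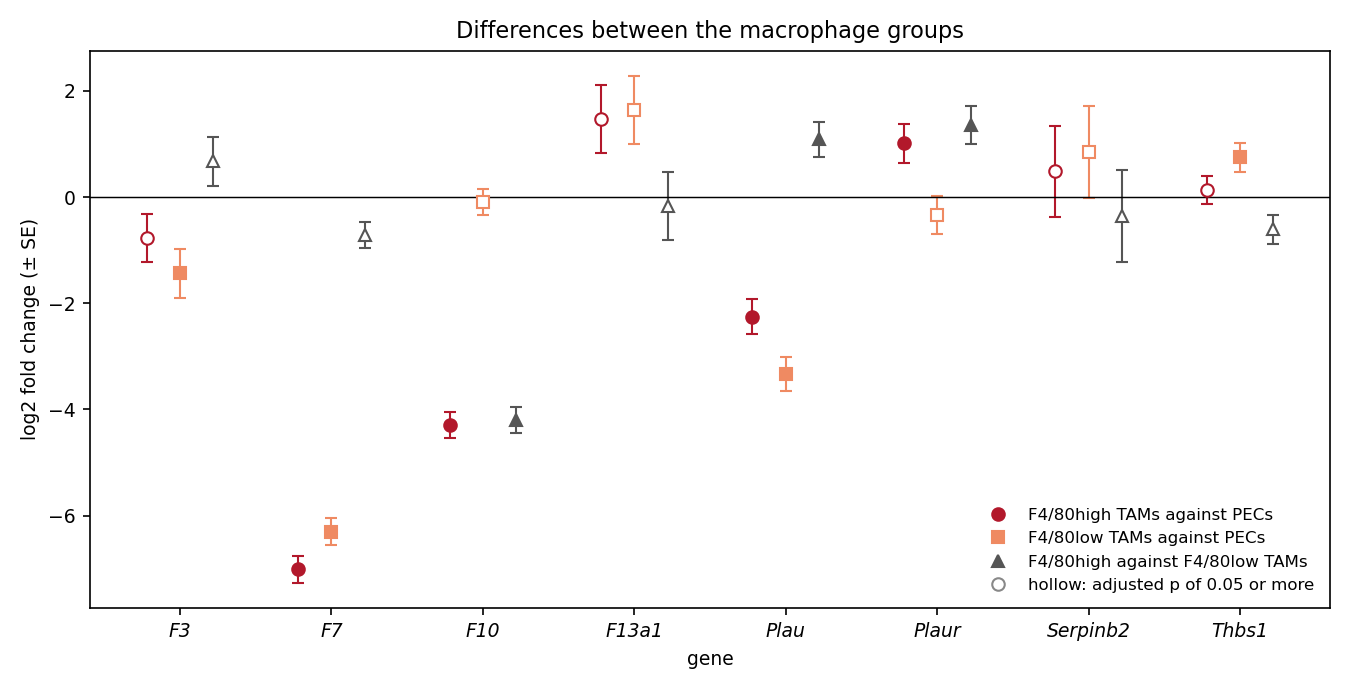
Log2 fold change with SE (vertical axis) of the 8 tested members in F4/80high TAMs against PECs (circles), F4/80low TAMs against PECs (squares) and F4/80high against F4/80low TAMs (triangles). Filled symbols have a limma adjusted p under 0.05. F7 is far below 0 in both TAM groups, and F10 only where F4/80high TAMs enter.

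The PEC arrays also differ from the TAMs in peritoneal macrophage markers. Of 8 markers of large peritoneal macrophages, 1 was above background on every array in each TAM group and 5 in PECs, and the list summed to 2.34 to 3.63 in F4/80high TAMs, 3.22 to 4.46 in F4/80low TAMs and 14.6 to 31.2 in PECs. Alox15, Timd4 and Selp of that list were above background on no PEC array. Like the list, F7 and Plau were higher in PECs than in both TAM groups. On PEC replicates 1, 2 and 3 the list summed to 14.6, 27.1 and 31.2. On the same arrays F7 read 5.24, 4.69 and 5.07, and Plau read 3.12, 4.02 and 3.42. The part of peritoneal macrophages in F7 and Plau was not tested.

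The other lists held 69 genes, of which 39 were tested. Most are genes of clotting, fibrinolysis and their receptors. The 39 also include 4 neighbours of F7 and F10 (Mcf2l, Pcid2, Cul4a and Lamp1), listed for their position, and 5 clade B serpins, listed for their family. In the counts that follow, these 4 neighbours gave 3 of the lower genes in each comparison with PECs. They gave 3 of the higher genes between TAM groups. In F4/80high TAMs against PECs 9 were higher and 17 lower, with a median log2 fold change of -0.30, against 53.1% called and a median of -0.00 over all genes. In F4/80low TAMs against PECs 9 were higher and 18 lower, with a median of -0.64, against 52.0% and -0.10 over all genes. In F4/80high against F4/80low TAMs 12 were higher and 7 lower, with a median of 0.04, against 32.7% and 0.08. With slide as a block 22 and 19 of the 39 were called against PECs in F4/80high and F4/80low TAMs, where 34.3% and 30.0% of all genes were called. The fibrinogen genes Fga, Fgb and Fgg, and F2, F8, F11, F12, F13b and Kng1, products mainly of the liver, were above background on no array, F9 and Plg on 1 array each. Klkb1, the gene of prekallikrein, was above background on every TAM array and no PEC array. It was at least 4.70-fold higher in F4/80high TAMs (adjusted p 0.000799, or 0.0223 with slide as a block) and at least 3.68-fold higher in F4/80low TAMs (adjusted p 0.00194, or 0.0425 with slide as a block).

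Of 7 tested anticoagulant genes, 2 were higher and 3 lower in F4/80high TAMs than in PECs, and 2 higher and 4 lower in F4/80low TAMs. Over all genes 53.1% and 52.0% were called in these comparisons, and nothing is read from the counts. Pros1, protein S, was at 0.18 ± 0.37 in F4/80high TAMs, -1.39 ± 0.12 in F4/80low TAMs and 2.39 ± 0.17 in PECs (SD, n = 3 each). Its log2 fold change against PECs was -2.21 in F4/80high TAMs (adjusted p 3.06e-05) and -3.78 in F4/80low TAMs (adjusted p 2.41e-06), and F4/80high TAMs were above F4/80low TAMs by 1.57 (adjusted p 0.000605). Tfpi, the inhibitor of tissue factor, changed by -1.32 in F4/80high TAMs (adjusted p 0.000644) and by -1.95 in F4/80low TAMs (adjusted p 8.67e-05). Thbd, thrombomodulin, read 2.17, 1.70 and 1.94 in PECs and was above background on 1 of 3 F4/80high and 2 of 3 F4/80low arrays, so its fold changes rest in part on values at background. It changed by -4.27 in F4/80high TAMs (adjusted p 5.33e-05) and by -3.37 in F4/80low TAMs (adjusted p 0.000288). These 3 genes were also called with slide as a block (Pros1 -2.07 and -3.64, Tfpi -1.01 and -1.63, Thbd -4.51 and -3.61). Of this list 2 genes were higher instead, the antithrombin gene Serpinc1 and the heparin cofactor gene Serpind1, both above background in TAMs and on no PEC array. Serpind1 was at least 3.94-fold higher in F4/80high TAMs (adjusted p 7.72e-06, or 0.000474 with slide as a block) and at least 22.7-fold higher in F4/80low TAMs (adjusted p 7.77e-07, or 8.30e-05 with slide as a block).

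Plat, the tissue plasminogen activator, was above background on every F4/80high TAM array, 1 F4/80low TAM array and no PEC array, and was at least 4.37-fold higher in F4/80high TAMs than in PECs (adjusted p 4.99e-06, or 0.000252 with slide as a block). It read -0.11, -0.50 and -0.63 in the F4/80high TAMs and -2.41, -1.79 and -1.96 in the F4/80low TAMs, a difference of 1.64 (adjusted p 0.00180) that rests in part on values at background. Of 4 plasminogen receptor genes, 1 was called lower in F4/80high TAMs and 2 in the F4/80low TAMs against PECs, and Anxa2, a cell-surface site of plasmin formation, changed by -0.64 and -0.57 (adjusted p 0.0286 and 0.0451). Neither Anxa2 difference was called with slide as a block (-0.52 and -0.45, adjusted p 0.219 and 0.291). The F4/80high call was also lost without F4/80high replicate 1 or 2 or PEC replicate 2 or 3 (adjusted p 0.0569 to 0.0973), and the F4/80low call without F4/80high replicate 2, F4/80low replicate 1 or 3 or any PEC array (adjusted p 0.0541 to 0.138).

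F2r, the thrombin receptor PAR1, was the only tested gene of 4 protease-activated receptors. It was at -0.18 ± 0.05 in F4/80high TAMs and 2.73 ± 0.30 in the F4/80low TAMs (SD, n = 3 each), and above background on no PEC array. It was at least 5.15-fold higher in F4/80high TAMs (adjusted p 1.26e-05, or 0.000151 with slide as a block) and at least 38.6-fold higher in F4/80low TAMs (adjusted p 7.72e-07, or 2.64e-05 with slide as a block) than in PECs. Between TAM groups its log2 fold change was -2.91 (adjusted p 0.000173), with F4/80high TAMs lower. The neutrophil sum was highest in F4/80low TAMs too, and the part of those cells in F2r was not tested. Vwf, the platelet-binding factor, was lower than in PECs, with a log2 fold change of -4.22 in F4/80high TAMs (adjusted p 0.000509, or 0.00655 with slide as a block) and -3.70 in F4/80low TAMs (adjusted p 0.00131, or 0.0130 with slide as a block). Endothelium and megakaryocytes make Vwf. Of 6 endothelial markers Kdr alone was above background on every PEC array, and the part of endothelium in Vwf was not tested.

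Of 5 tested partners of the urokinase receptor, 1 was higher and 2 lower in F4/80high TAMs than in PECs, and 1 higher and 3 lower in F4/80low TAMs. These and the following list counts stand beside 53.1% and 52.0% of all genes called, and nothing is read from them. Lrp1, which clears urokinase bound to its inhibitor, was lower, with a log2 fold change of -2.48 in F4/80high TAMs (adjusted p 0.000212, or 0.00737 with slide as a block) and -3.54 in F4/80low TAMs (adjusted p 3.48e-05, or 0.00179 with slide as a block). Of 4 tested thrombospondin relatives and receptors, 1 was higher and 3 lower in F4/80high TAMs than in PECs, and 1 higher and 2 lower in F4/80low TAMs. Cd36, a thrombospondin receptor, was above background on no TAM array, and at least 916-fold lower in F4/80high TAMs (adjusted p 1.49e-07, or 1.1e-05 with slide as a block) and at least 959-fold lower in F4/80low TAMs (adjusted p 2.25e-07, or 2.11e-05 with slide as a block). Itgb3, the integrin beta 3 chain, was above background on no F4/80high TAM array and at least 52.3-fold lower there than in F4/80low TAMs (adjusted p 5.40e-06) and at least 22.6-fold lower than in PECs (adjusted p 3.02e-06, or 0.000212 with slide as a block). A second Itgb3 probe gave log2 fold changes of -2.73 (adjusted p 0.000268) and -2.23 (adjusted p 0.000302) in these comparisons. Cd47, another thrombospondin receptor, was higher in F4/80high TAMs than in F4/80low TAMs by 1.01 (adjusted p 0.00409) and than in PECs by 1.40 (adjusted p 0.000331, or 1.21 and 0.0102 with slide as a block). Of 5 tested clade B serpins, the family of Serpinb2, 1 was higher and 2 lower in F4/80high TAMs against PECs, and 1 higher and 1 lower in F4/80low TAMs. Serpinb6a, a serpin of the cell interior, changed by -3.14 in F4/80high TAMs (adjusted p 3.02e-06, or 0.000145 with slide as a block) and by -2.42 in F4/80low TAMs (adjusted p 1.68e-05, or 0.000690 with slide as a block).

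**Figure D4:**
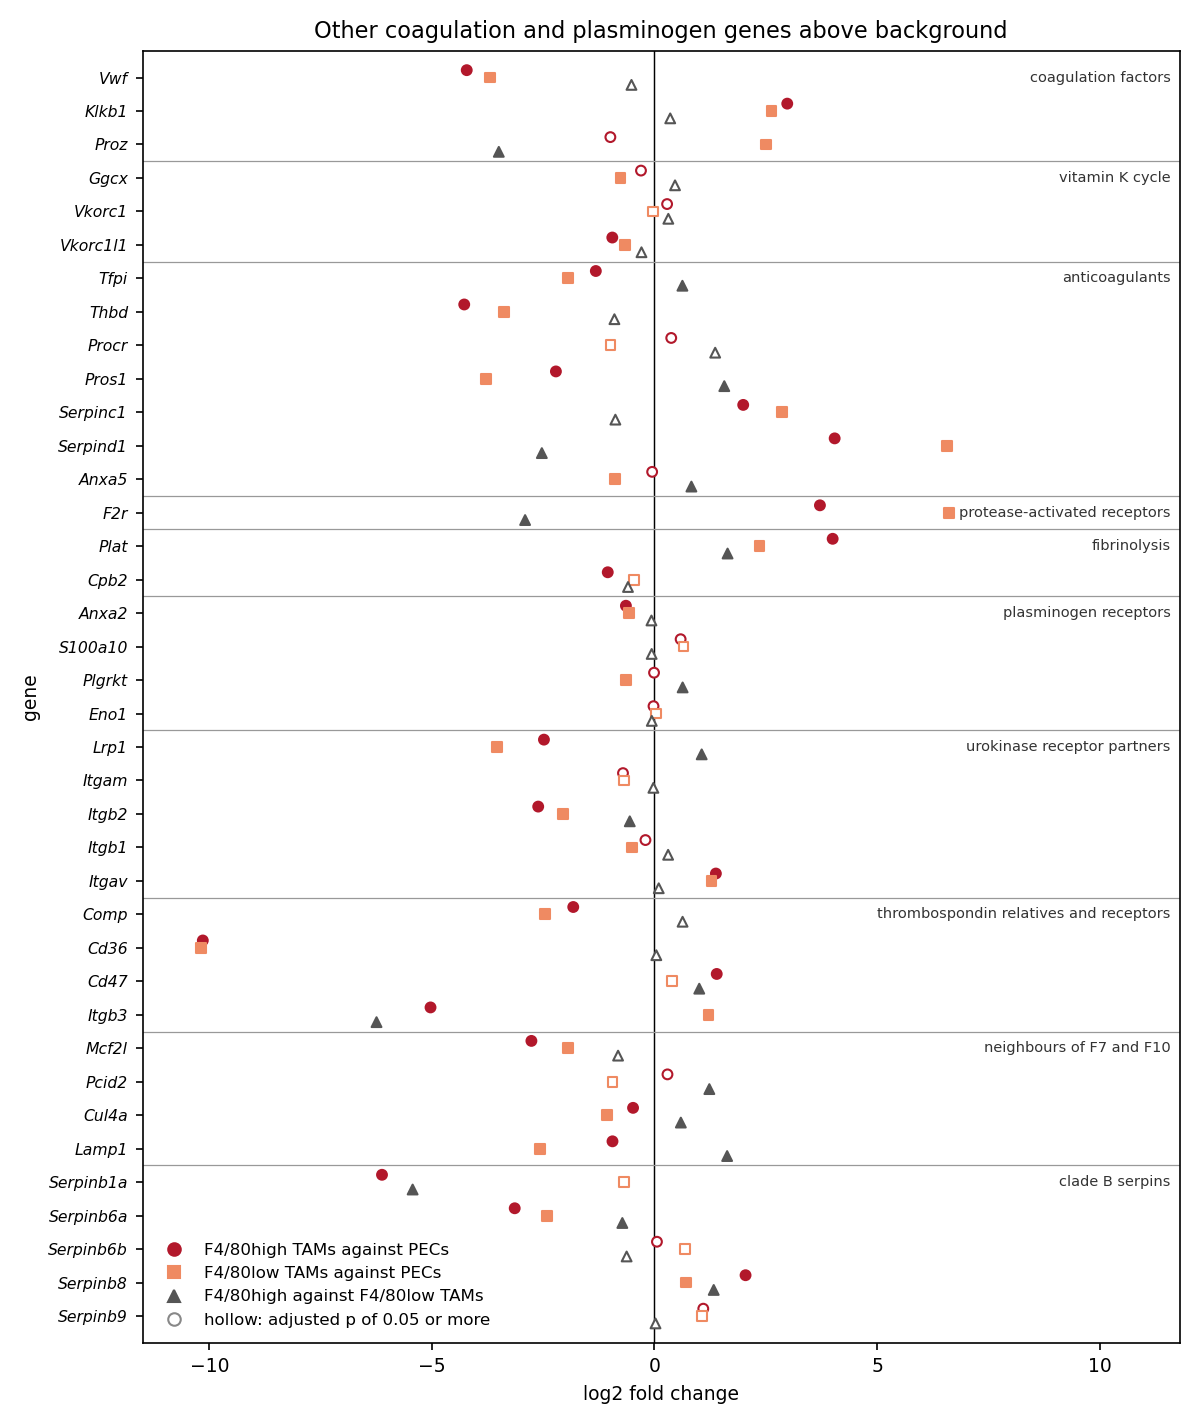
Log2 fold change (horizontal axis) of 38 of the 39 tested genes of the other lists, by list, in F4/80high TAMs against PECs (circles), F4/80low TAMs against PECs (squares) and F4/80high against F4/80low TAMs (triangles), filled where the limma adjusted p was under 0.05. Values of genes not above background in a group are measured values and not bounds. Cd36 lies near -10 in both TAM groups, and Serpind1 and F2r lie farthest to the right.

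Likeness of profile was measured as the root mean square difference of log2 values over the 9 arrays, each profile centred on its own mean, among 11115 named genes. The nearest genes were Pgap4 (0.41) and Dcstamp (0.42) for F10, and Bex1 (0.49) and Galnt9 (0.51) for F7. Pgap4 was above background on no F4/80high array, and Bex1 and Galnt9 on no TAM array, so these distances are in part between background values. Dcstamp, a membrane protein needed for macrophage fusion, was at 1.04 in F4/80high TAMs, 5.41 in F4/80low TAMs and 4.87 in PECs. For Plau the nearest were Plin2 (0.32) and Adcy7 (0.34), and for Plaur Rsbn1 (0.30) and Cd164 (0.30). For F3 they were Fitm2 (0.32) and Dusp10 (0.34), and for F13a1 Aurka (0.33) and Cdkn3 (0.38). Dusp10 was above background on no F4/80low array and Cdkn3 on 1 PEC array.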

How the data were processed

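RNA of 9 macrophage samples (3 per group, by the labels) was measured on single-colour Agilent arrays. The authors deposited scanner files whose linear spot intensity is background-subtracted, per the file headers (Agilent Feature Extraction 10.5.1.1, design 028005, mouse build mm9). They also deposited a table of log2 values for 9703 probes, with scale, centring and filter unstated; its columns have medians of 8.26 to 8.35 and correlate with the scanner values at 0.960 to 0.978 across probes, and it served as an alternative.

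Levels are log2 of the processed intensity minus the 75th percentile of the 59305 non-control spots of each array. Spots marked as outliers (103 to 307 per array) were left out, and spots of 1 probe were averaged. Probes were kept where a whole group of 3 arrays read well above background (21197), and the brightest stood for its gene, except F10. On each array 21421 to 22695 spots were above background, none was saturated, and the number of arrays limits precision (median SE 0.236 log2 units). Names came from RefSeq accessions for 26413 probes and from the files for 29268.

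All 9 arrays entered 1 fit with limma 3.58.1 (R 4.3.3, lmFit and eBayes, two-sided), with Benjamini-Hochberg adjustment over 16462 genes within each of 3 comparisons. The procedure was tested on simulated data. The members, the 69 other genes and the cell type marker lists were chosen with earlier results of these data known. All members were named. Eligible to be named were listed genes that passed in at least 1 comparison (not all are), the neighbours of F7 and F10, and the 2 genes nearest in profile to each member whose group means span 1 log2 unit or more. Listed genes above background on no or 1 array are named as such.

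TAM arrays that share a number across the F4/80 groups deviated weakly together from their group means (correlations across genes 0.23, 0.17 and 0.13). The numbers may therefore pair them, but the labels state no pairing. Except where a replicate block is named, p-values between TAM groups come from fits without pairing. PEC numbers did not pair with either. Alternatives were normexp correction, quantile normalization, median centring, no filter, the mean of the probes of a gene, the deposited table, slide as a block, slide 1 alone, the compared groups alone, a replicate block and each array left out. No mm9 genome or annotation was used here. The values of 1 listed gene are not reported here.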

Additional observations from a re-analysis of the deposited data

Results flagged for a closer look

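By direct tests 3 of the 8 tested members were called between the TAM groups, which share the contrast with PECs. Over all genes 32.7% were called in this comparison. The members were chosen from these same arrays, so the calls are a description. F10 by its own probe had a log2 difference of -4.20 between F4/80high and F4/80low TAMs (adjusted p 1.00e-05). Plau had 1.08 (adjusted p 0.0299) and Plaur had 1.35 (adjusted p 0.0182). The Plau and Plaur calls were each lost in 6 of 20 alternative settings. No group of 4 or more arrays existed in which a lone outlying array could be tested.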

How the results depend on the processing

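The falls of F7 and Plau against PECs in both TAM groups and of F10, by its own probe, in F4/80high TAMs kept their direction and their call under each of the alternatives run; the calls of F3, Plaur and Thbs1, and that of Plau between TAM groups, did not, and the cause was not tested. Counts of members with F10 by its brightest probe in F4/80high against F4/80low TAMs were 2, and became 1 with normexp correction, 1 with quantile normalization, 0 with no filter and 4 with the mean of the probes of a gene. With F10 by its own probe 3 became 1 with no filter. The shares of all genes called in this comparison under these settings are not given here, so nothing is read from these counts. Over all genes, 5652 and 4943 were called in F4/80high and F4/80low TAMs against PECs with slide as a block, 4934 and 4199 on the arrays of slide 1, and 14226 in F4/80low TAMs with no filter, where 36492 genes were tested. Within slide 1 alone, 16 of the 39 other genes were called in F4/80low TAMs against 27 over all arrays. Leaving out each array in turn gave 2 to 4 members in F4/80low TAMs against PECs by either probe of F10, and 0 to 2 (brightest) or 1 to 3 (own probe) in F4/80high against F4/80low TAMs. It gave -0.76 to 0.61 for F13a1 in F4/80high against F4/80low TAMs, -0.63 to 1.44 and -0.27 to 1.80 for Serpinb2 in F4/80high and F4/80low TAMs against PECs, -0.095 to 0.29 for Thbs1 in F4/80high TAMs and -0.26 to 0.12 for F10 (own probe) in F4/80low TAMs against PECs.

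Some signs turned. With slide as a block and on slide 1 alone these were F3 in F4/80high TAMs (0.21), Plaur in F4/80low TAMs (0.30) and F10 by its own probe in F4/80low TAMs (0.11) against PECs; the last was 0.063 with quantile normalization and 0.075 with median centring. F10 by its brightest probe turned in F4/80high against F4/80low TAMs to 0.061 with normexp correction and 0.13 with quantile normalization, in F4/80low TAMs against PECs to -0.056 with quantile normalization, and in F4/80high TAMs against PECs to -1.99 with the mean of its probes. The deposited table, which lacks that probe, gave -4.02 in F4/80high TAMs and -0.020 in the F4/80low TAMs against PECs. With the replicate number as a block, members called (F10 by its own probe) were 4, 4 and 3. F13a1 then passed against PECs in F4/80high TAMs (1.47, adjusted p 0.00770) and F4/80low TAMs (1.64, adjusted p 0.00536). Plaur in F4/80high TAMs (1.01, adjusted p 0.0630) and Thbs1 in F4/80low TAMs (0.75, adjusted p 0.0644) did not pass. In the 6 TAM arrays alone with this block 4 members and 16 other genes were called. The shares of all genes called in these fits are not given here, so nothing is read from the counts.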

Other observations

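Markers of other cell types were also read on these arrays, as summed linear levels relative to the 75th percentile. Mast cell markers summed to 1.01 to 1.47 in F4/80high TAMs, 2.65 to 4.48 in F4/80low TAMs and 0.266 to 0.543 in PECs, with Cma1 above background on no array. Dendritic cell markers summed to 35.3 to 43.4 in F4/80high TAMs, 33.2 to 79.5 in F4/80low TAMs and 0.390 to 0.791 in PECs, and Xcr1 and Cd209a were above background on no array. Endothelial markers summed to 38.9 to 47.7 in F4/80high TAMs, 28.0 to 44.8 in F4/80low TAMs and 20.9 to 35.9 in PECs, with Tek, Cldn5 and Emcn above background nowhere. Fibroblast markers summed to 2.09 to 3.14 in F4/80high TAMs, 2.73 to 5.29 in F4/80low TAMs and 2.39 to 2.96 in PECs, and Pdgfra, Pdgfrb and Lum were above background nowhere. T and NK cell markers summed to 9.97 to 12.3 in F4/80high TAMs, 17.3 to 24.3 in F4/80low TAMs and 9.03 to 12.8 in PECs. Mesothelial and B cell markers summed to less than 1 in F4/80high TAMs and PECs, and mesothelial markers reached 1.82 to 2.45 in F4/80low TAMs, where Msln alone was above background. Monocyte markers summed to 210 to 323 in F4/80high TAMs, 217 to 1144 in F4/80low TAMs and 185 to 226 in PECs. The sum of 1144 was that of F4/80low replicate 1. Most of the F4/80high and PEC sums was Fn1, at 8.31, 8.25 and 7.67 in the F4/80high TAMs and 7.58, 7.52 and 7.80 in PECs. The part of these cells in the levels of the clotting genes was not tested.

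Of the 9 members, 7 have a RefSeq promoter window, and 3 of these (F3, Plaur and Serpinb2) hold the AP-1 motif TGANTCA, read on both strands, which is in 7.81% of all 32851 windows. The F3 window holds it at both -146 and -135 relative to the start.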
